A study of Zea mays with 12 samples.

Results

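The cold response of B73 embryos was measured in 6 RNA-seq libraries of the 12 in the study, chosen by their labels as B73 embryos at 10 °C and at 25 °C, with 3 biological replicates at each temperature. B73 is a maize (Zea mays) inbred line labelled as low-temperature resistant, and the other 6 libraries came from Mo17, a line labelled as sensitive. Embryos were taken from germinating seeds that had imbibed in germination paper and were sampled at 2 h, and the 25 °C seeds were the normal condition. Neither group carries a transgene or a chemical treatment in the labels, and temperature is the one difference the labels give between them. The deposited table gave 99 genes, an alphabetical stretch of symbols from a2 to ARF16. Of these, 76 passed a filter of at least 1 FPKM in at least 3 of the 12 libraries. aldh5, ae1_1, amyb5, am1 and aox1 stayed below 1 FPKM in every B73 library and passed through Mo17 alone. akh2, at 0.21 to 1.21 FPKM in B73, also needed the Mo17 libraries to pass.

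Imbibition is the uptake of water by which a dry seed restarts metabolism. The embryo resumes respiration and glycolysis from stored sugars and stored messenger RNA before its cells divide, and the tight seed coat can leave it short of oxygen, so that fermentation by alcohol dehydrogenase is active in this phase. Chilling during imbibition is known to injure maize seed, through damage to membranes as they rehydrate and through slowed metabolism. Messenger RNA in an embryo at this stage is partly a store laid down during seed development and partly newly made, and a bulk RNA level sums both.

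Levels are given as FPKM, the authors' fragments scaled to gene length and to library size. The log2 changes are 10 °C over 25 °C, from the edgeR quasi-likelihood test on the deposited counts, with p-values adjusted by Benjamini-Hochberg over the 76 genes and a threshold of 0.05. In bulk embryos, fewer cells of a type and less RNA per cell cannot be told apart. Depth relative to the mean library ran from 0.82 to 1.08 in B73, and counts over the 99 genes summed to 576807 to 769480 per library. The absolute depth is unknown. Of the markers searched for to check the tissue, both ADP-glucose pyrophosphorylase genes looked for as embryo forms were abundant, at 157.14 to 248.05 FPKM for AGP2 and 121.52 to 149.01 FPKM for Agpsemzm, while ae1_1, annotated as the starch branching enzyme of amyloplasts, was at 0.33 to 0.7 FPKM. A further gene with the symbol ae1, which has no enzyme annotation in the table, was listed at 0 in all 6 B73 libraries. The aleurone anthocyanin gene a2 was at or below 0.02 FPKM.

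One library stood apart from its group. B73 10 °C replicate 1 correlated with its replicates at 0.969 and 0.974 (Pearson r of log2(FPKM + 1) over the 76 genes, a description), while replicates 2 and 3 correlated with each other at 0.997 and the 25 °C libraries among themselves at 0.994 to 0.997. In FPKM + 1, which damps differences at low levels, it differed by more than 1.5-fold from the mean of its 2 replicates in 16 genes. Of these, 11 lay above and 5 below. By the same measure the count was 4 and 5 genes in the other libraries at 10 °C, 0 to 2 in the 25 °C libraries and 3 to 7 in the Mo17 libraries. The Mo17 libraries correlated within their groups at 0.981 to 0.994. The correlation of B73 10 °C replicate 1 with Mo17 libraries was 0.874 to 0.909. Of the 5 genes with the strongest evidence of higher levels in Mo17 at 25 °C, none reached the Mo17 range in it: act1 was at 147.36 FPKM, where Mo17 began at 311.23, acpt1 at 1.7 FPKM, where Mo17 began at 5.32, and AI714808 at 59.21 FPKM, where Mo17 began at 151.38. AR3 was at 2170.53 FPKM, above the other B73 libraries, which reached 1975.76, and below Mo17, which began at 3520.64. abp1 was at 75.89 FPKM, above the other B73 libraries, which reached 73.62, and below Mo17, which began at 113.17. Log2 changes below are therefore given with and without this library.

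**Figure D1:**
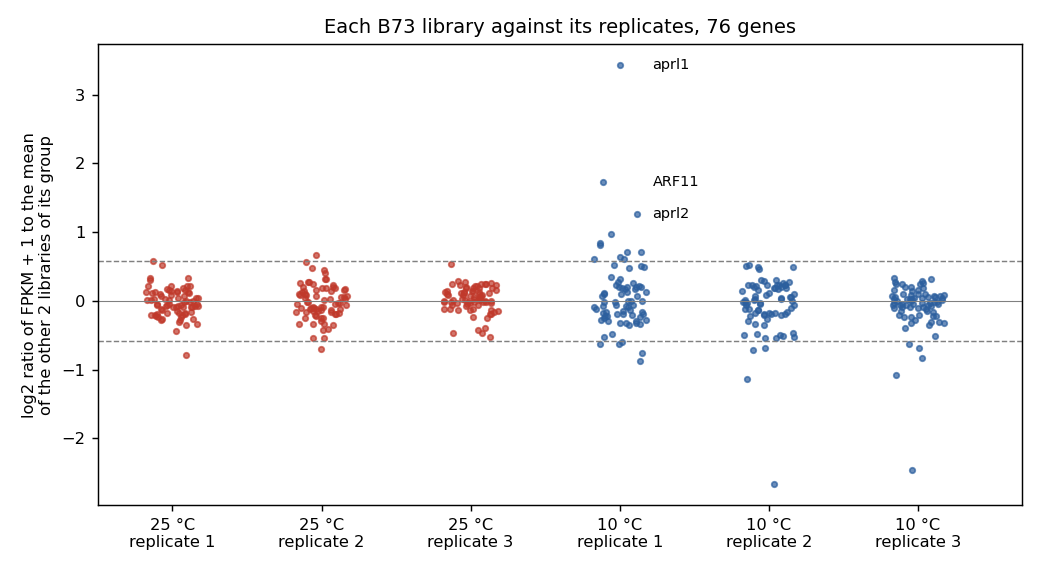
Log2 ratio of FPKM + 1 in each B73 library to the mean of the other 2 libraries of its group (vertical axis), 1 point per gene for 76 genes, with dashed lines at 1.5-fold. In 10 °C replicate 1, 16 genes lie outside the lines and aprl1, ARF11 and aprl2 lie highest; aprl1 and ARF11 are also the lowest points of the other 2 libraries at 10 °C, since that library enters their reference.

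The response to 10 °C in B73 was small for most of these genes. 1 of the 76 genes (percent called 1.32%) passed the threshold with all libraries, ald1, which was lower at 10 °C, and 8 (10.5%) had an unadjusted p under 0.05. The count was again 1 (1.32%) without 10 °C replicate 1, but the gene was ARF11, also lower, and 8 genes (10.5%) had an unadjusted p under 0.05. In 70 of the 76 genes the estimated change was less than 1.5-fold, with or without that library. The median log2 change was -0.05 with all libraries and -0.04 without it. The estimates were negative for 46 genes and positive for 30, and 52 genes kept their sign when the library was left out.

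Fermentation and glycolysis genes had the lowest median of the lists with at least 2 tested genes. All 5 members of the list were tested, 1 passed and was lower, and all 5 had negative estimates, with a median log2 change of -0.87 against -0.05 over the 76 genes. None passed without 10 °C replicate 1, all 5 were again negative and the median was -0.80. These genes were on a list drawn up with earlier results of the data known, so this is a description. The list includes aldh5, which was at 0.22 to 0.51 FPKM in the B73 libraries and passed the filter through Mo17 alone.

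ald1 encodes cytosolic fructose-bisphosphate aldolase, which splits fructose 1,6-bisphosphate in glycolysis. It was at 223.48, 255.14 and 256.95 FPKM at 25 °C and at 118.17, 146.13 and 92.89 FPKM at 10 °C. The groups did not overlap, and 10 °C replicate 1 lay between its 2 replicates. The log2 change was -1.04 ± 0.22 (SE), a 2.06-fold lower mean, with a 95% interval of -1.53 to -0.55 (edgeR quasi-likelihood, adjusted p = 0.0499). The estimate without 10 °C replicate 1 was -1.04 ± 0.26 (SE) and missed the threshold at an adjusted p of 0.0545. The size of the change thus hardly moved while the call crossed the threshold. It was also lost without any of the 3 libraries at 25 °C (adjusted p = 0.0904, 0.167 and 0.209), without 10 °C replicate 3 (0.121), and without Mo17 25 °C replicate 2 (0.083) or Mo17 10 °C replicate 3 (0.0623), which enter through the shared estimate of the spread.

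The alcohol dehydrogenases, which regenerate NAD+ by reducing acetaldehyde to ethanol, were both lower in every library at 10 °C, but neither passed. adh1, the main anaerobic form in maize, was at 411.89, 499.88 and 496.29 FPKM at 25 °C and 234.4, 267.32 and 270.09 FPKM at 10 °C. Its log2 change was -0.87 ± 0.21 (SE; edgeR adjusted p = 0.0657), and -0.80 ± 0.24 (SE; adjusted p = 0.106) without 10 °C replicate 1. The estimate lay between -0.95 and -0.79 over all alternatives, and the adjusted p between 0.000924 and 0.259.

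adh2 was far less abundant, at 1.57, 1.2 and 1.33 FPKM against 0.6, 0.63 and 0.3 FPKM. The groups did not overlap, yet the SE was large at this level, with a log2 change of -1.41 ± 0.69 (SE; edgeR adjusted p = 0.545) and a 95% interval of -2.92 to 0.11. It was -1.52 ± 0.85 (SE) without 10 °C replicate 1. Both alcohol dehydrogenases thus had the same direction, and for adh2 the interval includes no change.

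The aldehyde dehydrogenases oxidise aldehydes, including the acetaldehyde of fermentation. aldh2, the mitochondrial form RF2B, was at 126.83, 88.08 and 129.39 FPKM at 25 °C and 66.62, 99.21 and 70.33 FPKM at 10 °C. The groups overlapped, because 25 °C replicate 2 lay below 10 °C replicate 2. Its log2 change was -0.54 ± 0.19 (SE; edgeR adjusted p = 0.2), and -0.44 ± 0.21 (SE; adjusted p = 0.376) without 10 °C replicate 1. aldh5 was low, at 0.26, 0.51 and 0.45 FPKM against 0.5, 0.22 and 0.25 FPKM. Its estimate went from -0.32 ± 0.41 (SE) to -0.78 ± 0.42 (SE) when 10 °C replicate 1, the highest cold library, was left out, with adjusted p of 0.832 and 0.416.

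**Figure D2:**
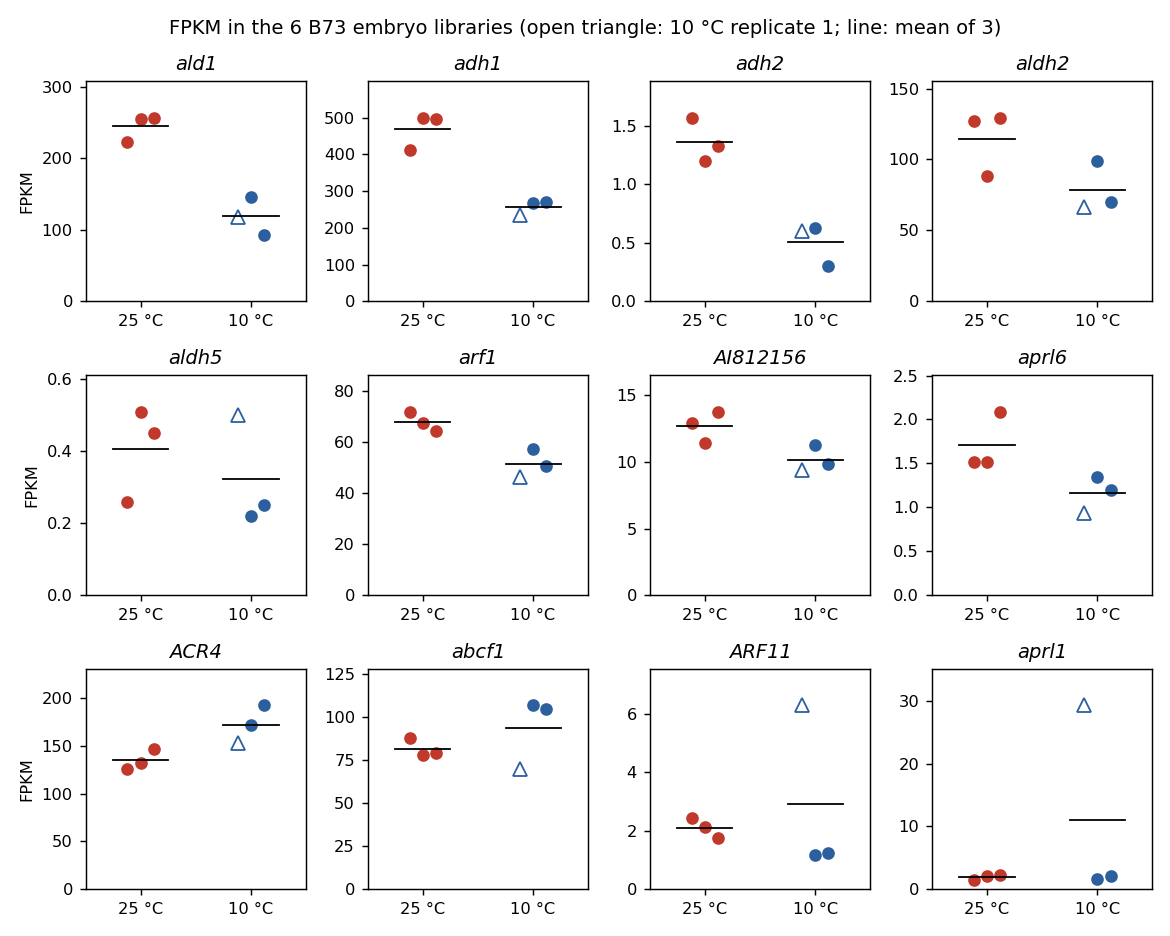
FPKM (vertical axis, linear, from 0) of 12 genes in the 3 B73 libraries at 25 °C and the 3 at 10 °C, with a line at each mean and an open triangle for 10 °C replicate 1. The cold libraries of ald1, adh1, adh2, arf1, AI812156 and aprl6 all lie below those at 25 °C and those of ACR4 above, while for ARF11 and aprl1 the triangle stands far above the other 2 cold libraries.

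In 10 of the 76 genes (percent called 13.2%) no cold library lay within the 25 °C range or the reverse, 9 lower (11.8%) and 1 higher (1.32%) at 10 °C. With no effect of temperature, 3 libraries against 3 separate with a probability of 0.1, so the share was near what no effect would give. Beside ald1, adh1 and adh2, the lower genes were arf1, AI812156, aprl6, akh2, AMADH2 and aprl4, and the higher gene was ACR4. Among these 10 genes ald1 alone passed the test. The groups were apart in 19 genes (25%) once 10 °C replicate 1 was left out, 15 lower (19.7%) and 4 higher (5.26%). With 2 libraries in a group, separation is easier to meet, and its probability with no effect of temperature is above 0.1. The rise from 13.2% is therefore not read as a stronger response.

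arf1, an ADP-ribosylation factor, is a small GTPase that recruits coat proteins to transport vesicles. It was at 71.92, 67.31 and 64.24 FPKM at 25 °C and 46.25, 57.1 and 50.52 FPKM at 10 °C, a log2 change of -0.40 ± 0.13 (SE; edgeR adjusted p = 0.2). Without 10 °C replicate 1, its lowest library, the change was -0.33 ± 0.15 (SE; adjusted p = 0.376).

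AI812156, annotated as a subunit of Elongator, a complex that modifies transfer RNA and has been linked to histone acetylation, was at 12.96, 11.45 and 13.79 FPKM against 9.39, 11.3 and 9.84 FPKM. Its groups were separated by a narrow gap, between 11.3 and 11.45 FPKM. The log2 change was -0.32 ± 0.12 (SE; edgeR adjusted p = 0.2), and -0.27 ± 0.12 (SE) without 10 °C replicate 1.

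ACR4 was the 1 gene whose cold libraries all lay above those at 25 °C. Its annotation in the table is to control of amino acid metabolism and to the cytokinin response. It was at 125.63, 132.39 and 146.36 FPKM at 25 °C and 152.89, 171.77 and 192.54 FPKM at 10 °C, with a log2 change of 0.35 ± 0.12 (SE; edgeR adjusted p = 0.2). Without 10 °C replicate 1, its lowest cold library, the change was 0.43 ± 0.13 (SE; adjusted p = 0.106).

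The other amino acid genes did not follow it. In the list of 4, all tested, none passed and 3 estimates were negative. akh2, a bifunctional aspartokinase and homoserine dehydrogenase that opens the branch from aspartate to threonine and methionine, was at 0.81, 0.9 and 1.21 FPKM against 0.69, 0.21 and 0.73 FPKM, a log2 change of -0.82 ± 0.41 (SE; edgeR adjusted p = 0.545). It was -1.03 ± 0.46 (SE; adjusted p = 0.376) without 10 °C replicate 1. als1, an acetolactate synthase, which starts the synthesis of branched-chain amino acids, had a log2 change of -0.14 ± 0.11 (SE), and -0.04 ± 0.10 (SE) without 10 °C replicate 1. AMADH2, annotated with betaine-aldehyde dehydrogenase activity and the cellular response to anoxia, was on no list. It was at 15.33, 14.68 and 17.98 FPKM against 13.19, 13.52 and 14.33 FPKM, a log2 change of -0.23 ± 0.12 (SE; adjusted p = 0.548), and -0.20 ± 0.13 (SE) without that library.

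The redox list, apx2 and 9 genes named for adenosine 5'-phosphosulfate reductase, held 10 tested genes. None passed, with or without 10 °C replicate 1, and 6 estimates were negative and 4 positive both ways. The members differ in annotation: aprl1 and aprl2 are annotated to sulfate assimilation, in which the reductase turns activated sulfate into sulfite, while aprl6 is annotated as a disulfide isomerase that helps proteins fold in the endoplasmic reticulum.

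aprl1 had the most extreme estimate of the 76 genes and rested on 1 library. It was at 1.46, 2.05 and 2.22 FPKM at 25 °C and at 29.35, 1.62 and 2 FPKM at 10 °C. aprl1 lies on chromosome 7 at 157695136 to 157698277 on the minus strand, in B73 RefGen_v4. The high value was that of 10 °C replicate 1, 16.2 times the mean of its 2 replicates, which lay inside the 25 °C range. The log2 change was 2.52 ± 0.89 (SE; edgeR adjusted p = 0.2) with this library and -0.08 ± 0.23 (SE; adjusted p = 0.985) without it.

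aprl2 had the same shape on a smaller scale, at 9.44, 15.51 and 18.46 FPKM against 37.39, 15.41 and 14.47 FPKM, with 10 °C replicate 1 at 2.5 times the mean of its replicates. Its log2 change went from 0.63 ± 0.35 (SE) to 0.05 ± 0.23 (SE). For aprl7 the same library lay low instead, at 5.64 FPKM beside 9.01 and 9.49 FPKM in its replicates, and its log2 change went from -0.17 ± 0.21 (SE) to 0.03 ± 0.18 (SE).

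aprl6 was at 1.51, 1.52 and 2.09 FPKM against 0.93, 1.35 and 1.2 FPKM, a log2 change of -0.56 ± 0.21 (SE; edgeR adjusted p = 0.226), and -0.43 ± 0.22 (SE; adjusted p = 0.41) without 10 °C replicate 1. aprl4 was at 48.59, 47.7 and 55.22 FPKM against 41.58, 45.15 and 44.83 FPKM, a log2 change of -0.20 ± 0.12 (SE; adjusted p = 0.567), and -0.17 ± 0.13 (SE) without that library. apx2, an ascorbate peroxidase that removes hydrogen peroxide, had a log2 change of -0.08 ± 0.09 (SE; adjusted p = 0.812), and -0.02 ± 0.09 (SE) without it.

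The auxin list covers auxin-binding proteins, auxin response factors, which are the transcription factors that auxin releases from repression, and an auxin import carrier; 4 of its 5 members were tested, and aic1 did not pass the filter. None passed with all libraries, and 1, ARF11, passed without 10 °C replicate 1. ARF11, on chromosome 3 at 199611508 to 199617607 on the plus strand, was at 2.42, 2.11 and 1.76 FPKM at 25 °C and at 6.3, 1.18 and 1.24 FPKM at 10 °C. Replicates 2 and 3 at 10 °C lay below every 25 °C library and replicate 1 above them all, at 5.21 times the mean of the other 2 cold libraries.

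With all libraries the log2 change of ARF11 was 0.47 ± 0.52 (SE; edgeR adjusted p = 0.812). Without 10 °C replicate 1 it fell at -0.79 ± 0.17 (SE; adjusted p = 0.0486), so that the sign turned with the library. Leaving it out also lowered the spread that the test estimates for this gene. ARF11 is itself among the genes by which that library stood apart, at a log2 ratio of 1.72 to its replicates in FPKM + 1. The call without the library is therefore not independent of leaving it out. It was lost with TMM or median-ratio factors and with limma at a pseudocount of 1. DESeq2, limma at a pseudocount of 0.1, the replicate block and the 6 B73 libraries alone kept it. ARF16 was at 255.63 to 263.47 FPKM at 25 °C and 254.94 to 294.6 FPKM at 10 °C (log2 change 0.09 ± 0.08, SE), and abp1, an auxin-binding protein of the endoplasmic reticulum, at 60.9 to 73.62 and 71.76 to 75.89 FPKM (0.09 ± 0.09, SE). The interval of ARF16 ran from -0.08 to 0.26 and that of abp1 from -0.11 to 0.30. Their estimates without 10 °C replicate 1 were 0.05 ± 0.09 (SE) and 0.07 ± 0.11 (SE).

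**Figure D3:**
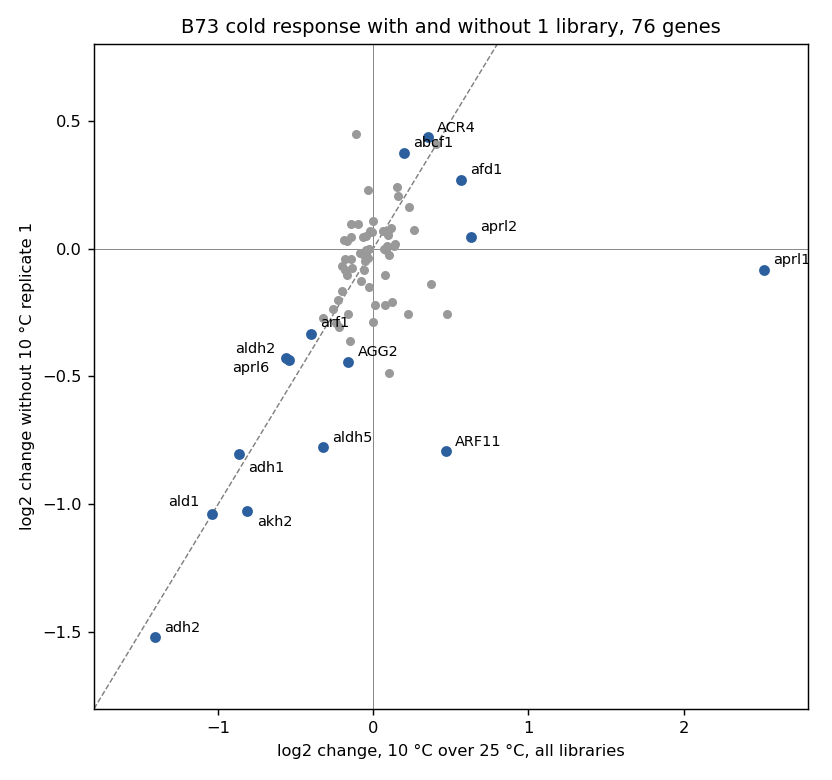
Log2 change at 10 °C over 25 °C in B73 for 76 genes, with all libraries (horizontal) and without 10 °C replicate 1 (vertical), with a dashed line where both are equal. ald1, adh1 and adh2 lie near the line, while aprl1 moved from 2.52 to -0.08 and ARF11 from 0.47 to -0.79.

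abcf1 came out in the opposite way, lower in 10 °C replicate 1 and higher in its 2 replicates. It is annotated as an ATP-binding transporter of the plasma membrane. It was at 87.47, 77.74 and 79.23 FPKM at 25 °C and 69.71, 106.66 and 104.7 FPKM at 10 °C. The log2 change was 0.20 ± 0.14 (SE; edgeR adjusted p = 0.704) with all libraries and 0.38 ± 0.09 (SE; adjusted p = 0.0545) without 10 °C replicate 1. AI665898, a reticulon that shapes the endoplasmic reticulum, had 0.15 ± 0.11 (SE) and 0.24 ± 0.11 (SE; adjusted p = 0.376) in the same 2 fits.

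In the mitochondrial list none of the 5 tested members passed in either fit. They include aox1, which was at 0.19 to 0.72 FPKM in B73. The ADP/ATP carriers, which exchange mitochondrial ATP for cytosolic ADP, had log2 changes of 0.01 ± 0.16 (SE) for ANT1 and 0.08 ± 0.15 (SE) for ANT2. Both were highest in 10 °C replicate 1, at 322.94 and 214.41 FPKM, and without it the estimates were -0.22 ± 0.12 (SE) and -0.10 ± 0.13 (SE). The alternative oxidase aox1_1, which passes electrons to oxygen outside the cytochrome pathway, was at 8.41, 7.61 and 8.59 FPKM against 9.38, 6.67 and 6.09 FPKM. Its log2 change was -0.15 ± 0.23 (SE), and -0.36 ± 0.22 (SE) without 10 °C replicate 1. adk1, an adenylate kinase gene that the table annotates to the chloroplast, had -0.07 ± 0.13 (SE), and 0.05 ± 0.13 (SE) without that library, and aox3 was listed at 0 in all 6 libraries.

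Starch genes did not pass either. All 5 members were tested, with 4 positive estimates and a median log2 change of 0.10. That median is the estimate of amyb5, which was at 0.13 to 0.49 FPKM in B73. In the fit without 10 °C replicate 1 the positive estimates numbered 2 and the median was -0.01. AGP2, a subunit of the ADP-glucose pyrophosphorylase that makes the sugar donor for starch, was at 205.81, 157.14 and 215.4 FPKM against 248.05, 196.03 and 191.71 FPKM (log2 change 0.14 ± 0.14, SE). The 95% interval ran from -0.17 to 0.44, and the estimate without that library was 0.0081 ± 0.14 (SE). ae1_1, a starch branching enzyme, stayed under 1 FPKM, with log2 changes of 0.40 ± 0.29 (SE) with it and 0.41 ± 0.33 (SE) without it.

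The jasmonate pair moved in opposite directions within 10 °C replicate 1. Allene oxide synthase and allene oxide cyclase carry out successive steps on the way to jasmonate. aos1 was at 207.13, 296.5 and 267.32 FPKM at 25 °C and 392.64, 214.92 and 229.83 FPKM at 10 °C, and aoc1 at 25.67, 19.99 and 27.92 against 16.09, 27.91 and 22.72 FPKM. The log2 changes were 0.12 ± 0.21 (SE) for aos1 and -0.14 ± 0.23 (SE) for aoc1, and -0.21 ± 0.15 (SE) and 0.05 ± 0.21 (SE) without that library. No value passed. The other 4 members of the hormone list, aba1, acs7, ACO31 and acco20, were at 0.7 FPKM or below and were not tested.

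Genes of the cytoskeleton had small estimates. Of 5 members 3 were tested and none passed. act1, an actin, was at 152.57, 133.46 and 140.9 FPKM against 147.36, 146.1 and 152.78 FPKM, a log2 change of 0.06 ± 0.07 (SE) with a 95% interval of -0.10 to 0.23. act2 had -0.04 ± 0.11 (SE) and ADF3, an actin-depolymerizing factor, -0.02 ± 0.08 (SE), and over the alternatives the estimate of act1 ran from 0.02 to 0.14, that of act2 from -0.10 to 0.04 and that of ADF3 from -0.07 to 0.05. Their estimates without 10 °C replicate 1 were 0.07 ± 0.09 (SE), -0.04 ± 0.12 (SE) and -0.0031 ± 0.09 (SE). In fatty acid synthesis neither gene passed: ACC1, acetyl-CoA carboxylase, had -0.0019 ± 0.20 (SE) with all libraries and -0.29 ± 0.15 (SE) without 10 °C replicate 1, where it stood at 57.73 FPKM beside 29.97 and 39.58 FPKM.

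Of the 6 chromatin and transcription genes 5 were tested and none passed. The tested genes include am1, which was at 0 to 0.22 FPKM in B73. The alfin-like factors, PHD finger proteins that bind methylated histone H3, had log2 changes of 0.0016 ± 0.15 (SE) for ALF6, 0.07 ± 0.16 (SE) for ALF19 and -0.19 ± 0.19 (SE) for ALF7, which was lowest in 10 °C replicate 1 at 9.95 FPKM. In the fit without it the estimates were 0.11 ± 0.14 (SE) for ALF6, -0.0031 ± 0.17 (SE) for ALF19 and 0.03 ± 0.12 (SE) for ALF7, so that the sign of ALF7 and ALF19 turned. The cohesin subunit afd1, known for its role in meiosis, had 0.57 ± 0.31 (SE) and, without that library, 0.27 ± 0.30 (SE). AGA1, an alkaline alpha-galactosidase annotated to the breakdown of raffinose, a sugar store of dry seeds, was on no list and stood at 229.59 to 280.34 FPKM in the 6 libraries (log2 change -0.05 ± 0.11, SE, and -0.0057 ± 0.12, SE, without 10 °C replicate 1).

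The difference between the responses of B73 and Mo17 was tested directly, as an interaction term. No gene passed (0%), with 6 (7.89%) at an unadjusted p under 0.05, and the smallest adjusted p was 0.432 (edgeR quasi-likelihood; limma and DESeq2 also called 0). Without 10 °C replicate 1 the counts were 0 (0%) and 8 (10.5%), and the smallest adjusted p was 0.141, that of ARF11. Without that library its change was -0.79 in B73 and its interaction -0.90 ± 0.22 (SE), and with all libraries the interaction was 0.36 ± 0.73 (SE; adjusted p = 0.969). For ald1 the difference between the lines was -0.31 ± 0.31 (SE), for adh1 -0.24 ± 0.30 (SE) and for ACR4 -0.07 ± 0.17 (SE), none past the threshold. In the fit without 10 °C replicate 1 these were -0.30 ± 0.34 (SE), -0.17 ± 0.32 (SE) and 0.012 ± 0.17 (SE). adh2 had a log2 change of 0.07 ± 0.60 (SE) in Mo17, and the interaction, -1.47 ± 0.91 (SE; adjusted p = 0.731), did not pass, nor did it without that library (-1.59 ± 1.04, SE). No gene of the table can thus be called particular to B73 from these libraries.

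**Figure D4:**
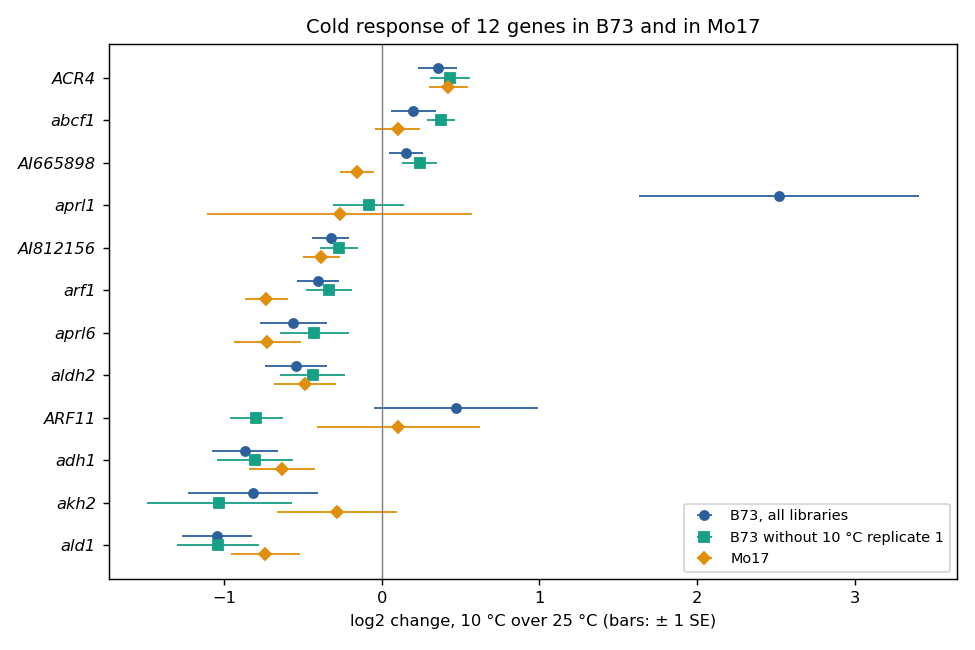
Log2 change at 10 °C over 25 °C (horizontal axis, bars ± 1 SE) of 12 genes, those whose unadjusted p was under 0.05 in B73 in either fit, in B73 with all libraries, in B73 without 10 °C replicate 1, and in Mo17 with all libraries. ald1, adh1, aldh2, akh2, aprl6, arf1 and AI812156 have negative estimates in all 3, and ACR4 and abcf1 have positive estimates in all 3. The wide Mo17 bars of aprl1 and ARF11 include the spread of the B73 library that stands apart, since 1 estimate of the spread serves all 4 groups.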

How the data were processed

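The deposited table held, per the file headers, a count and an FPKM per gene and library, 1 column for each of the 12 libraries, with no column left unused. Per the labels' protocols, poly(A) RNA was sequenced in pairs from dUTP libraries; no source used here says whether strand entered the counting. Per the submitters' processing notes, the build was B73 RefGen_v4 and the tools included HISAT2 2.0.4, cutadapt 1.9 and StringTie 1.3.4d beside DESeq2 and edgeR, with no role given. All deposited counts were whole, but none is 1 or 2 and the smallest above 0 is 3, so a fragment may be worth several counts, and no counting intervals are given. The deposited FPKM is the count divided by a gene and a library constant, within 0.374% over 48 genes with at least 5 FPKM in all libraries, and these library constants served as relative depth.

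The counts were tested with edgeR 4.0.16 (R 4.3.3) at that depth and no TMM factors, as 1 model of 4 group means. SEs come from the F statistic, and intervals are 95%. limma 3.58.1 on log2(FPKM + 1) and DESeq2 1.42.0 were alternatives. The test was also run on simulated counts, each taken as 1 fragment and with no library standing apart. That setting differs from these data, and its outcome is not used here. Replicates are biological, per the labels. Genes named had an unadjusted p under 0.05 in either fit, groups that did not overlap, or 1 of the 3 smallest p of a list; any other gene was picked with its values in view. 13 lists were matched by symbol, and 4 genes were added by description (AGPLS3, Agpsemzm, aic1, acco20), while ae1 was taken out of the starch list because the table gives it no enzyme annotation. Some genes of the table are counted in the totals but not reported here by name. Positions are those of the deposited table, with chromosome numbers read from the transcripts of 91 genes found in a RefSeq table of a later B73 assembly. Members and lists were chosen with earlier results of these data known. Reads of near-identical genes, such as adh1 and adh2, may have been split or misassigned in the authors' counts.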

Additional observations from a re-analysis of the deposited data

How the results depend on the processing

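The count of B73 cold genes past the threshold was 1 with all libraries, and it was 0 with TMM or median-ratio factors and 2 (ald1 and adh1) with DESeq2, the replicate block or the 6 B73 libraries alone. Leaving out 1 library at a time gave 0 to 2. Without B73 10 °C replicate 1 the count was 1 (ARF11). It was 0 with TMM factors, limma at a pseudocount of 1 or a filter of 5 FPKM, which ARF11 did not pass. The count was 2 (abcf1 and ACR4, higher) with median-ratio factors and 3 with limma at a pseudocount of 0.1 or the replicate block. It was 4 with the 6 B73 libraries or with limma array weights (an alternative chosen after seeing the data), and 5 with DESeq2. Leaving out a second library gave 0 to 3, and where it left 1 library at 10 °C, that library was assumed to vary like the other groups. The interaction stayed at 0 in every alternative run. Deviations of same-numbered B73 libraries from their group means correlated at -0.28, -0.38 and 0.0395. These values cannot decide whether the replicate numbers pair the samples, since deviations within a group of 3 depend on each other.

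Of 35 named genes, 21 kept their sign under all alternatives. TMM and median-ratio factors, which moved the median log2 change from -0.05 to 0.02 and 0.03, turned ACC1 (0.070 and 0.066), ADF3 (0.041 and 0.051), acpt1 (0.039 and 0.046) and act2 (0.033 and 0.037), and median-ratio factors adk1 (0.0089). Array weights turned ADF3 (0.0077), AGP2 (-0.027), ARF11 (-0.33) and aos1 (-0.087). Over the fits that each left out 1 library, the log2 change ran from -0.79 to 0.84 for ARF11 and from -0.083 to 3.03 for aprl1, from -0.29 to 0.20 for ACC1, -0.21 to 0.28 for aos1, -0.10 to 0.23 for ANT2, -0.38 to 0.033 for ALF7, -0.34 to 0.045 for aoc1, -0.18 to 0.045 for adk1, -0.15 to 0.095 for acpt1, -0.10 to 0.032 for act2, -0.074 to 0.040 for ADF3, -0.011 to 0.22 for ALF19 and -0.0053 to 0.16 for AGPLS3. The value without B73 10 °C replicate 1 was the lowest for ARF11, aprl1, ACC1, aos1, ANT2, acpt1 and AGPLS3 and the highest for ALF7, aoc1 and adk1, and no other library left out turned the sign of ARF11, aprl1, AGPLS3, ALF7, aoc1 or adk1. The cause of the other sign changes was not tested, and of these genes ARF11 alone had a call in any of these fits. The relative depth is known but not the number of fragments, which limits what can be said of genes near 1 FPKM.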

Other observations

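23 of the 99 genes did not pass the filter and entered no comparison. 5 of them were listed at 0 in all 6 B73 libraries: adf1, an actin-depolymerizing factor; ae1, with no enzyme annotation in the table; AGAMOUS, a floral organ identity gene; ALF10, an alfin-like factor; and aox3, an alternative oxidase. The highest value in B73 among the 23 was 1.3 FPKM, that of an1, a copalyl diphosphate synthase gene of gibberellin synthesis, in 25 °C replicate 2, beside 0.76 and 0.5 FPKM at 25 °C and 0.77, 0.61 and 0.91 FPKM at 10 °C.

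7 of these low genes had their highest B73 value in the library that stood apart, 10 °C replicate 1. ACO31, acs7, ANAC010 and ANAC030 were at 0.06, 0.09, 0.12 and 0.02 FPKM in it, and the other 3 were higher. aic1, an auxin import carrier, was at 1.15 FPKM in it, beside 0.59 and 0.45 FPKM in the other libraries at 10 °C and 0.26, 0.43 and 0.35 FPKM at 25 °C. aba1 was at 0.7 FPKM in it, beside 0.3 and 0.09 FPKM at 10 °C and 0.18, 0.18 and 0.24 FPKM at 25 °C. aprt1, an adenine phosphoribosyltransferase of purine salvage, was at 0.53 FPKM in it, beside 0.19 and 0.27 FPKM at 10 °C and 0.09, 0.08 and 0.29 FPKM at 25 °C. They were picked with their values in view, and no test was run on them.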
